A study of Mus musculus with 96 samples.

Results

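The comparison described here set the cerebellum of Q140 mice at 10 months of age against that of control mice of the same age. It took the 8 libraries labelled as heterozygous Q140 at 10 months and all 24 libraries labelled as heterozygous Q20 or wild type (WT) at that age, 32 of the 96 libraries of the series, with no selection on measured values. All mice were C57BL/6. The Q140 mice carried 1 knock-in Huntingtin (Htt) allele of 140 CAG repeats beside 1 WT allele and were housed with Q140 mice. The Q20 mice carried a knock-in allele of 20 repeats beside a WT allele and were housed, like the WT mice of the Q20 line, with WT and Q20 mice. The WT mice of the Q50 line were housed with WT and Q50 mice. Each of these 4 groups held 4 females and 4 males. The main fit also held 8 libraries of heterozygous Q50 mice and 8 of heterozygous Q92 mice of 10 months. Their knock-in alleles had 50 and 92 repeats. They had their own terms and shared the normalization and the estimate of spread, but were not part of the contrast. Mice of 6 months enter only where that age is named. No WT mice of the Q140 line were among the libraries, so genotype, line and housing cannot be told apart in this comparison.

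Huntington disease follows from an expanded CAG repeat in the first exon of the Huntingtin gene, and knock-in mice carry such a repeat in the mouse gene itself. The striatum is the region lost first in the adult disease, while the cerebellum is a region rich in granule neurons that is affected less in adults and more in the juvenile form. MicroRNAs are short RNAs cut from hairpin precursors, the stem-loops. They lower the output of messenger RNAs that they pair with, and several stem-loops can give rise to the same or nearly the same mature RNA.

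The files list stem-loops by miRBase accession (MI and 7 digits) and do not pair these with microRNA names or sequences. The results are therefore given by accession, with no name, function or sequence. For the same reason the tissue label could not be checked against marker microRNAs. As the RNA came from whole tissue, fewer cells of a type and less RNA per cell cannot be told apart. Library totals ran from 5435778 to 7793800 estimated counts over the 32 libraries. A count of 0 in the smallest allows up to 0.567 CPM (counts scaled to the normalised library size) at 3 counts, for counting error alone. The 10 most abundant stem-loops took 56.0% to 60.2% of the counts of a library. The library names carry an L tag, 1 or 8 at this age, that the labels do not explain and that stood for the batch. Of the Q140 libraries, 3 had tag 1 (females 1, 2 and 4) and 5 had tag 8 (female 3 and the 4 males), so tag and sex largely coincide within Q140.

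Of 434 stem-loops tested, 10 differed between Q140 and controls (edgeR, adjusted p under 0.05), which is 2.30% of those tested. Of these, 3 rose (0.691%) and 7 fell (1.61%) in Q140. Without adjustment 47 stem-loops had a p under 0.05, 23 of them higher and 24 lower. Differences were small: the median absolute log2 fold change was 0.08 over all stem-loops and 0.32 over the 10 called, against a median standard error (SE) of 0.10, or 0.06 for the 175 stem-loops at 100 CPM or more. Only 5 stem-loops had an absolute log2 fold change above 1, and the Q140 range lay clear of the control range for 0 of the 434 (0%). All 8 Q140 libraries lay on 1 side of the control mean for 7 of the 10 called stem-loops, and for 32 of the 434 (7.37%), a measure that comes from the same values as the test. The plot of fold change against level shows that the called stem-loops fall into a set of small shifts at about 10 CPM and above and a set of large shifts that, MI0025035 apart, sit at only a few CPM.

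**Figure D1:**
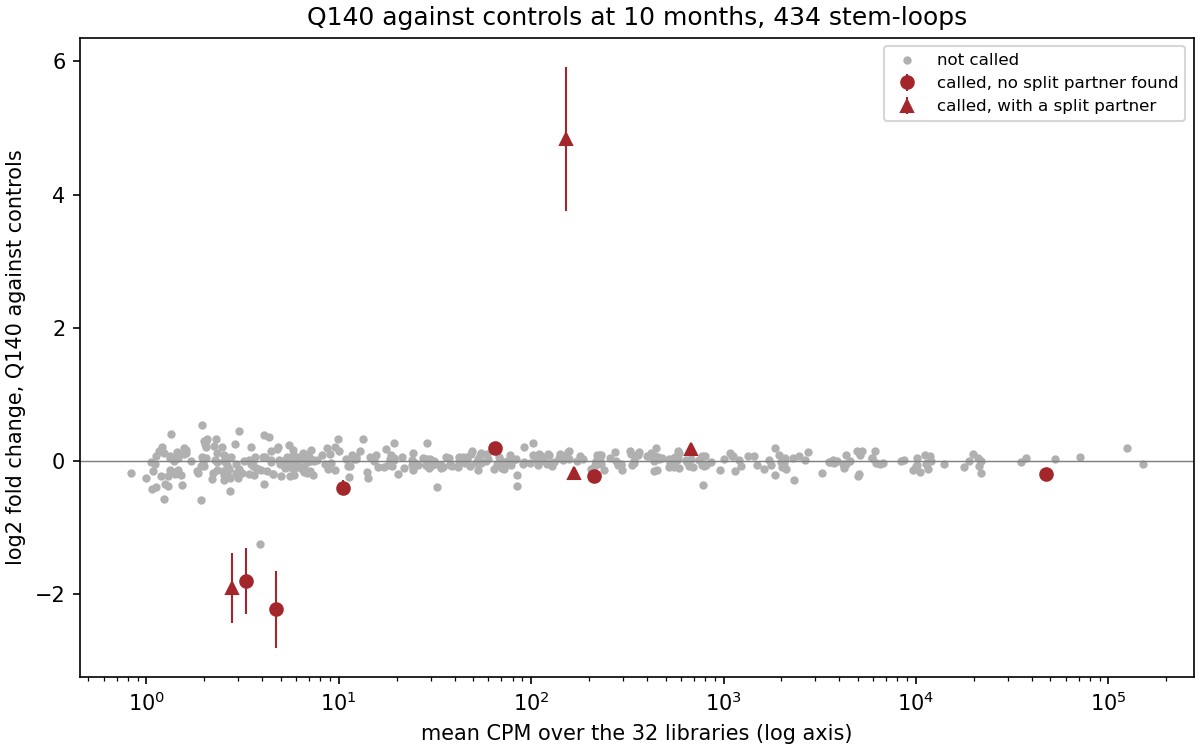
Each point is 1 of 434 stem-loops, with the mean CPM over the 32 libraries on the log x axis and the log2 fold change of Q140 against controls at 10 months on the y axis. The 10 called stem-loops carry bars of 1 SE, and triangles mark the 4 of them whose fractional counts add up to whole numbers with those of another stem-loop.

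The count of calls depended on single libraries. It was 1 when Q140 female 1 or 4 was left out, 2 when Q140 male 2 was, and 3 when Q140 female 2 or WT male 3 of the Q20 line was. Leaving out Q140 female 3 or Q140 male 4 gave 4 calls and leaving out Q20 male 4 gave 6. With Q140 male 1, Q140 male 3, Q20 female 2, Q20 female 3, Q20 male 3, or WT female 2 or WT male 2 of the Q20 line left out there were 5. With Q20 alone as controls 3 stem-loops passed, with both WT sets 4, with the WT of the Q20 line alone 4 and with the WT of the Q50 line alone 0 (31 at an unadjusted p under 0.05). In edgeR fits within L tag 1, L tag 8, females or males alone 0 passed, with 25, 32, 31 and 19 at an unadjusted p under 0.05.

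MI0005495 had the lowest p of the comparison. Its levels in the Q140 females were 136, 160, 157 and 165 CPM, and in the Q140 males 146, 153, 149 and 160 CPM. The 24 controls ran from 150 to 193 CPM with a median of 172. All 8 Q140 libraries lay below the control mean and 3 of them below every control, while 19 of 24 controls lay above every Q140 library. Means were 153 ± 9.46 CPM (SD, n = 8) in Q140 and 173 ± 10.2 CPM (SD, n = 24) in controls, and MI0005495 fell by 0.18 on the log2 scale (SE 0.04, edgeR adjusted p = 0.0112).

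The 3 control sets agreed in direction for this stem-loop. Q20 mice averaged 172 ± 7.05 CPM (SD, n = 8), WT mice of the Q20 line 178 ± 11.4 CPM (SD, n = 8) and WT mice of the Q50 line 168 ± 10.4 CPM (SD, n = 8). The log2 fold change of MI0005495 was -0.17 against Q20, -0.22 against the WT of the Q20 line and -0.14 against the WT of the Q50 line, with edgeR adjusted p of 0.0508, 0.00843 and 0.449. It was -0.17 within L tag 1 and -0.21 within L tag 8. Without Q140 female 1, the lowest library, the change was -0.15 (edgeR adjusted p = 0.0657), and leaving out any other of the 32 libraries kept the call. In the other knock-in mice of that age MI0005495 averaged 161 ± 9.70 CPM (SD, n = 8) in Q50 and 165 ± 6.37 CPM (SD, n = 8) in Q92, and neither differed from the same controls by the test (edgeR adjusted p of 0.119 and 0.485).

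MI0000696 fell as well, with wider spread. The Q140 females stood at 166, 189, 228 and 197 CPM and the Q140 males at 158, 186, 197 and 190 CPM, against 174 to 264 CPM in controls (median 224). Female 3 was the 1 Q140 library above the control mean, and 9 of 24 controls lay above every Q140 library. Means were 189 ± 21.04 CPM (SD, n = 8) and 221 ± 21.97 CPM (SD, n = 24), a log2 fold change of -0.23 (SE 0.06, edgeR adjusted p = 0.0336).

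The size of the change in MI0000696 depended on the control set. Q20 mice, at 210 ± 16.6 CPM (SD, n = 8), lay nearer to Q140 than the WT mice of the Q20 line, at 228 ± 21.01 CPM (SD, n = 8), or of the Q50 line, at 226 ± 25.3 CPM (SD, n = 8). Against Q20 alone the change was -0.15 (edgeR adjusted p = 0.385), and against both WT sets it was -0.26 (edgeR adjusted p = 0.0159). The call was lost in 6 of 32 fits that left out 1 library: Q140 female 1 (-0.19, edgeR adjusted p = 0.163), Q140 female 2 (-0.22, 0.0582), Q140 female 4 (-0.22, 0.0913), Q140 male 1 (-0.20, 0.124), Q140 male 2 (-0.23, 0.0531) and WT male 3 of the Q20 line (-0.22, 0.0509). The level also differed between the sexes among controls, with 232 ± 19.7 CPM (SD, n = 12) in females and 210 ± 18.6 CPM (SD, n = 12) in males, a difference that was not tested. Sex was a term of the fit. Q50 mice averaged 225 ± 22.4 CPM (SD, n = 8) and Q92 mice 210 ± 24.01 CPM (SD, n = 8), changes of 0.03 and -0.07 with edgeR adjusted p of 0.869 and 0.642.

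**Figure D2:**
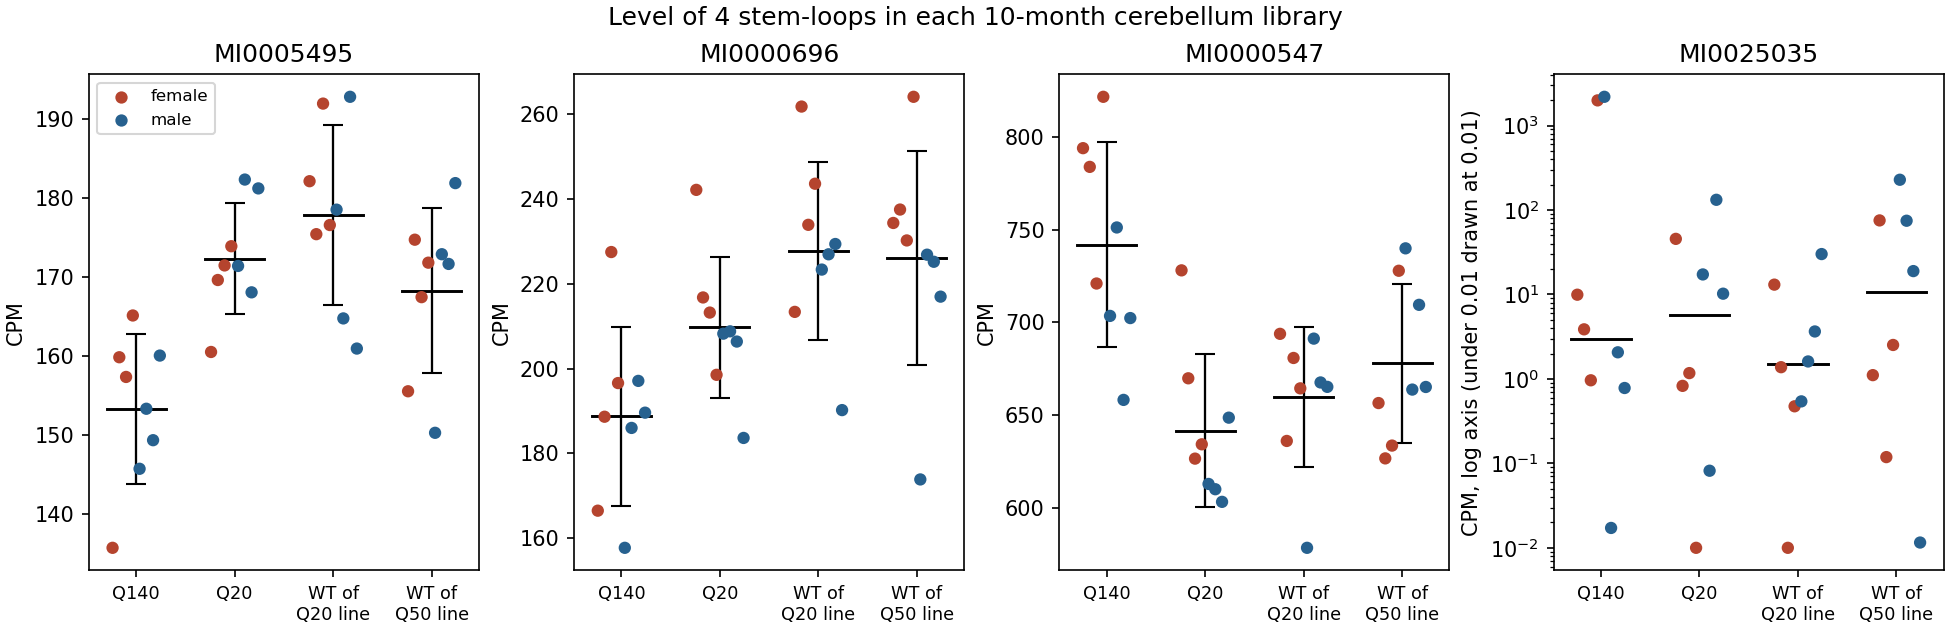
CPM of 4 stem-loops in each 10-month library by group, with females in red and males in blue. Black lines and bars are the mean and SD, except for MI0025035, which has a log axis and a line at the median; its Q140 values run from 0.0172 to 2192 CPM, while the Q140 means of the other 3 lie at 153, 189 and 742 CPM.

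MI0000547 rose in Q140 by its own count. The females stood at 794, 784, 721 and 822 CPM and the males at 703, 751, 658 and 702 CPM, against 578 to 740 CPM in controls (median 664). Of the Q140 libraries 7 of 8 lay above the control mean and 4 above every control. These 4 were females 1, 2 and 4, which are the Q140 libraries of L tag 1, and male 2. Means were 742 ± 55.3 CPM (SD, n = 8) and 660 ± 41.6 CPM (SD, n = 24), a log2 fold change of 0.18 (SE 0.04, edgeR adjusted p = 0.0267). It was 0.33 within L tag 1 and 0.13 within L tag 8, with edgeR adjusted p of 0.0715 and 0.552. The call was lost without Q140 female 1 (0.17, edgeR adjusted p = 0.102), Q140 female 2 (0.17, 0.0582), Q140 female 4 (0.16, 0.0913) or Q140 male 2 (0.17, 0.0553).

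The control sets differed in order for MI0000547 from that of MI0000696. Q20 was lowest at 642 ± 41.2 CPM (SD, n = 8), followed by the WT of the Q20 line at 660 ± 37.5 CPM (SD, n = 8) and the WT of the Q50 line at 678 ± 42.6 CPM (SD, n = 8), neighbours that overlap within their spread. The change was 0.21 against Q20 alone (edgeR adjusted p = 0.0368) and 0.16 against both WT sets (edgeR adjusted p = 0.0844). Q50 mice averaged 641 ± 51.8 CPM (SD, n = 8), below the control mean, and Q92 mice 676 ± 60.5 CPM (SD, n = 8), changes of -0.04 and 0.04 with edgeR adjusted p of 0.714 and 0.756.

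The deposited estimated counts are not all whole. For 56 groups of 2 or 3 stem-loops, 123 stem-loops in all, the fractional parts added up to whole numbers, as they do when a read that fits several stem-loops is divided between them. Of the 10 called stem-loops 4 were in such a group, MI0005495, MI0000547 and MI0025035 among them, while MI0000696 was not. Summing each group before the test, an alternative chosen after seeing the data, left 392 features of which 4 passed (1.02%). These were MI0000696, 2 other stem-loops called singly, and the group of MI0005495.

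For MI0005495 the group gave the same call as the single stem-loop. With MI0014095 and MI0014096 the fractions summed to whole numbers in 65 of 69 libraries. The sum averaged 193 ± 9.01 CPM (SD, n = 8) in Q140 against 212 ± 11.04 CPM (SD, n = 24) in controls, a log2 fold change of -0.13 (SE 0.03, edgeR adjusted p = 0.0477). For MI0000547, which holds a small part of the counts of its group, the sum did not pass the test. With MI0000548 and MI0000145 the fractions summed to whole numbers in 84 of 96 libraries, and the sum was 15580 ± 889 CPM (SD, n = 8) in Q140 and 15257 ± 2158 CPM (SD, n = 24) in controls (log2 fold change 0.04, SE 0.07, edgeR adjusted p = 0.910). The wide control spread includes Q20 female 4 at 20931 CPM and WT female 3 of the Q20 line at 22363 CPM, in which MI0000548 alone reached 14787 and 17066 CPM.

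MI0025035 had the largest fold change of the comparison, and it came from 2 libraries. Q140 female 4 stood at 1988 CPM and Q140 male 1 at 2192 CPM. The other Q140 females stood at 9.94, 3.87 and 0.963 CPM and the other males at 0.0172, 2.07 and 0.781 CPM. Controls ran from under the floor to 228 CPM with a median of 2.07, so 6 of 8 Q140 libraries lay within the control range and several of both groups lay under the floor of 3 counts. The log2 fold change was 4.84 (SE 1.08, edgeR adjusted p = 0.0118). It was 3.08 without female 4 (edgeR adjusted p = 0.507), 3.12 without male 1 (edgeR adjusted p = 0.507) and -2.48 without both (edgeR adjusted p = 0.777).

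The counts of MI0025035 were tied to those of MI0000153. Their fractional parts added up to whole numbers in 92 of the 92 libraries in which they had any. MI0000153 stood at 2488 CPM in Q140 female 4 and 2304 CPM in Q140 male 1, against 5026 to 5551 CPM in the other 6 Q140 libraries. In female 4 the estimated counts were 13016.3 for MI0025035 and 16288.7 for MI0000153, which add to 29305, and in male 1 they were 14064.9 and 14780.1, which add to 28845. MI0025035 thus took 44.4% and 48.8% of the pair in these libraries and at most 4.92% in any control.

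The sum of the pair did not stand out in either library. It ran from 4477 to 5555 CPM in Q140 (5090 ± 417 CPM, SD, n = 8) and from 3971 to 6575 CPM in controls (5248 ± 525 CPM, SD, n = 24). Its log2 fold change was -0.04 (SE 0.06, edgeR adjusted p = 0.910). The stacked plot of the pair shows that a high MI0025035 goes with a low MI0000153 in the same library.

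**Figure D3:**
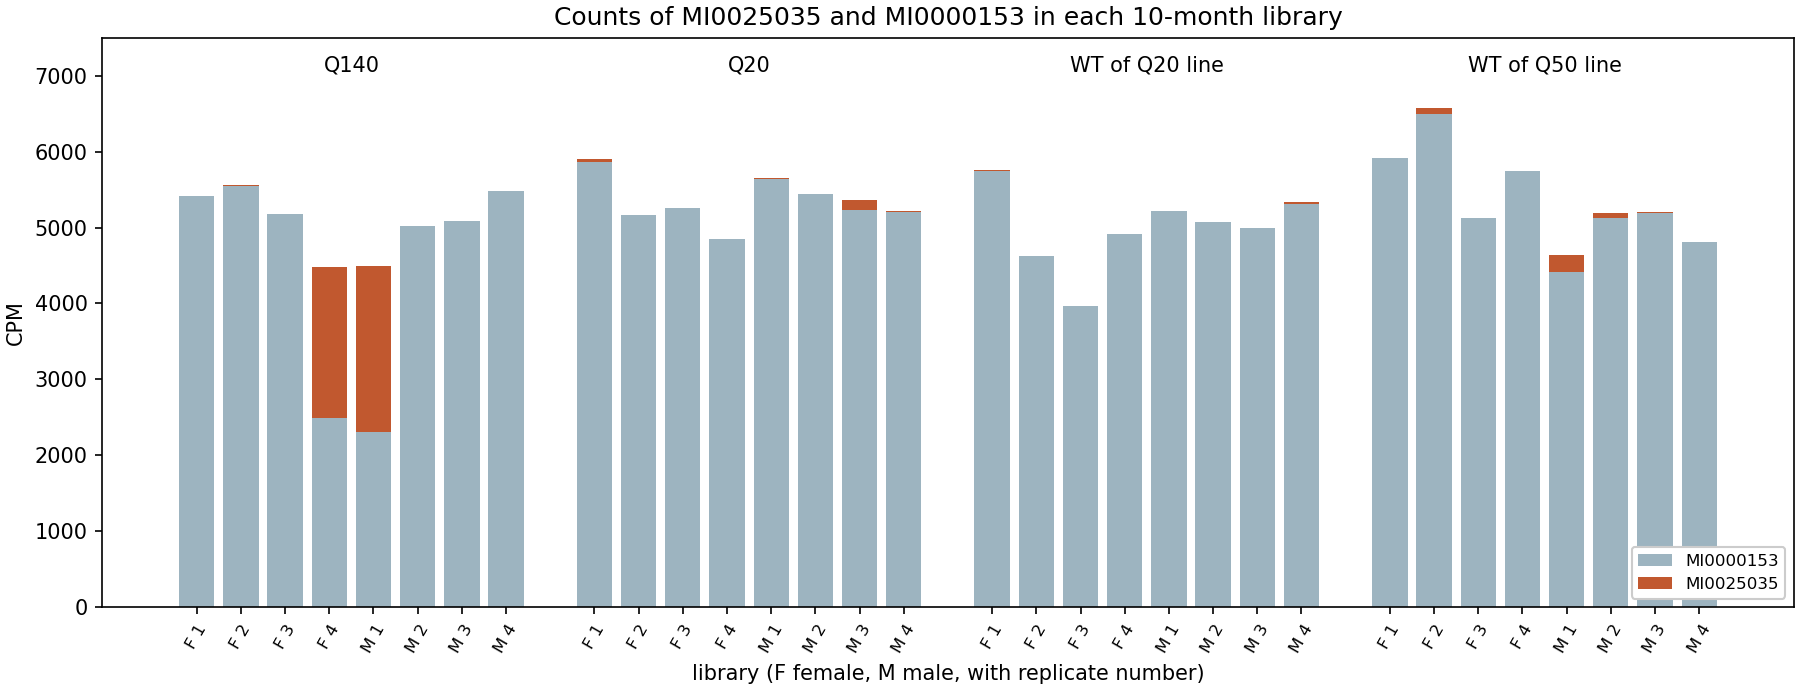
Stacked bars give the CPM of MI0000153 (grey-blue) and MI0025035 (orange) in each of the 32 libraries. MI0025035 makes up 44.4% of the bar in Q140 F4 and 48.8% in Q140 M1, and the whole bars of Q140 run from 4477 to 5555 CPM, inside the control range of 3971 to 6575 CPM.

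Over the 96 libraries 5 had MI0025035 at more than 10% of the pair. Besides these 2 they were the Q20 female 2 and the Q92 male 4 of 6 months, at 42.8% and 43.0%, and the Q50 male 4 of 10 months, at 10.6%. High shares therefore occurred in Q20 as well as in Q140, Q92 and Q50. The library names also carry an LB tag, which the labels do not explain and no fit used. Tag LB15 was held by Q140 male 1, the Q20 female 2 and the Q92 male 4 alone. The libraries of LB1, from Q92 and the WT of the Q50 line, had shares of 7.47%, 4.92% and 9.14%. Q140 female 4 had LB26 and Q50 male 4 had LB33, whose other libraries had at most 0.0104%. Whether share and tag go together was not tested. The Q20 female 2 and the Q92 male 4 are the 2 libraries of 6 months left out of all fits. The reason was a standardized connectivity (Z.k, how closely a library follows the others, in SD units) under -5. These 2 libraries were at -6.70 and -6.32.

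Connectivity was computed again with split counts summed, after seeing the data. Q140 female 4 had a Z.k of -3.67 and male 1 of -3.79, the only 2 of the 32 libraries under -3, while no control was under -1.98. Computed on counts with every split group summed, Z.k was -0.85 and -0.97 for them, and 0 of 32 libraries were under -3. For the 2 libraries of 6 months it was -1.86 and -1.43. With only the counts of MI0025035 and MI0000153 summed, Z.k was -0.93 in Q140 female 4, -0.89 in Q140 male 1, and -2.24 and -1.80 in the 2 libraries of 6 months, with 0 of 32 libraries under -3. Over all libraries of 10 months 5 had a Z.k under -3. Besides these 2 of Q140 they were Q50 female 3 (-4.30), Q50 male 4 (-3.36) and Q92 female 3 (-3.51). Leaving out all 5 left 1 call of the 10, MI0005495 (-0.18, edgeR adjusted p = 0.0409).

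The other large shifts concern stem-loops of a few CPM. A set of 3 fell, with log2 fold changes of -2.23, -1.80 and -1.91 and edgeR adjusted p between 0.0336 and 0.0407. All 8 Q140 libraries lay below the control mean for each. Their median levels were 1.01, 1.31 and 0.637 CPM in Q140, not far above the floor of 3 counts, and 3.63, 3.21 and 2.22 CPM in controls, with highest control values of 30.2, 16.8 and 11.7 CPM. The calls were lost in 8, 13 and 14 of the 32 fits that left out 1 library, with edgeR adjusted p from 0.0502 to 0.145. All 3 were lost without Q140 female 1, 3 or 4, Q140 male 2, 3 or 4, Q20 female 2 or WT male 3 of the Q20 line. Some of the 3 were lost without Q140 female 2, Q20 female 3, Q20 male 3, Q20 male 4, or WT female 2 or WT male 2 of the Q20 line.

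The levels of these 3 moved together from library to library. Pearson's r on log2(CPM + 0.5) ran from 0.863 to 0.939 for the 3 pairs over the 24 controls, a description over libraries of 3 groups. Only 1 further stem-loop followed them closely (r of 0.8498 with the mean of the 3 on that log2 scale), and the next was at 0.441. That further stem-loop was not called (log2 fold change -1.25, SE 0.47, edgeR adjusted p = 0.203), with all 8 Q140 libraries below its control mean. Its fractions summed to whole numbers with those of 1 of the 3 in all 16 libraries that had any, and this pair summed gave -1.50 (SE 0.46, edgeR adjusted p = 0.0839).

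Added up, the 3 stood in the Q140 females at 3.30, 7.38, 2.52 and 3.36 CPM and in the Q140 males at 5.77, 1.33, 1.33 and 1.58 CPM. In controls the sum ran from 4.69 to 58.7 CPM with a median of 7.93, and 15 of 24 controls lay above the highest Q140 library. Means were 3.32 ± 2.21 CPM (SD, n = 8) and 13.3 ± 12.5 CPM (SD, n = 24). All 3 control sets lay higher than Q140, at 15.99 ± 18.3 CPM (SD, n = 8) in Q20, 13.1 ± 12.03 CPM (SD, n = 8) in the WT of the Q20 line and 10.8 ± 4.29 CPM (SD, n = 8) in the WT of the Q50 line. The highest controls were Q20 female 2 at 58.7 CPM and WT male 2 of the Q20 line at 39.7 CPM. With both left out, an alternative chosen after seeing the data, the 3 changes were -1.73, -1.49 and -1.57, with edgeR adjusted p of 0.0628, 0.0768 and 0.0768, and 3 calls remained over all stem-loops, none of them of this set.

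Q140 was not tested against the other knock-in mice. The summed level was 26.1 ± 19.1 CPM (SD, n = 8) in Q50 and 11.4 ± 8.996 CPM (SD, n = 8) in Q92 at 10 months, against 13.3 CPM in the controls that all 3 genotypes share, and Q92 overlapped Q140, with a lowest library at 2.61 CPM. Against these controls the 3 changes ran from 0.96 to 1.06 in Q50 and from -0.33 to -0.27 in Q92, none past the threshold. At 6 months it was 7.93 ± 9.64 CPM (SD, n = 8) in Q140 and 9.64 ± 14.7 CPM (SD, n = 23, with Q20 female 2 of that age left out) in controls, with overlapping ranges.

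**Figure D4:**
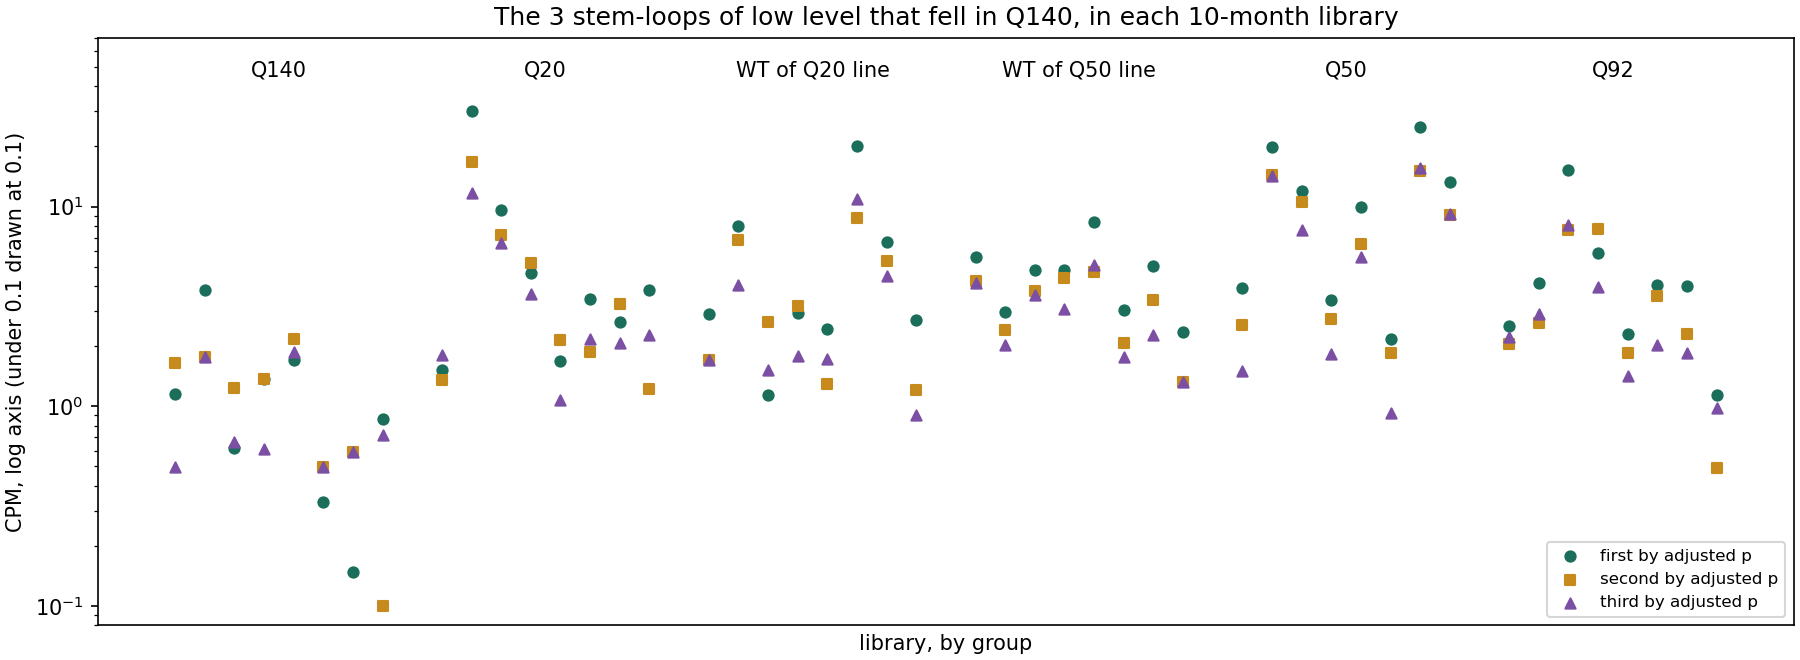
CPM on a log axis (values under 0.1 drawn at 0.1) of the 3 low-level stem-loops that fell in Q140, each with its own colour and marker, in each 10-month library by group. The 3 move together between libraries, with medians of 1.01, 1.31 and 0.637 CPM in Q140 and 3.63, 3.21 and 2.22 CPM in controls.

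The other 3 called stem-loops showed modest shifts. The most abundant, the fifth of all stem-loops by level, averaged 43257 ± 2258 CPM (SD, n = 8) in Q140 against 49134 ± 5802 CPM (SD, n = 24) in controls, with a log2 fold change of -0.21 (SE 0.06, edgeR adjusted p = 0.0429) and 8 of 8 Q140 libraries below the control mean. Its change in Q50 was of like size, -0.23, against the same controls, and passed the threshold there as well (edgeR adjusted p = 0.0265). Another faller stood at 8.53 ± 1.65 CPM (SD, n = 8) against 11.2 ± 2.11 CPM (SD, n = 24), a change of -0.41. Its control sets differed in level, at 13.01 ± 2.25 CPM (SD, n = 8) in Q20, 11.1 ± 0.962 CPM (SD, n = 8) in the WT of the Q20 line and 9.65 ± 1.45 CPM (SD, n = 8) in the WT of the Q50 line. The change was -0.61 against Q20 (edgeR adjusted p = 0.00325), -0.38 against the WT of the Q20 line (edgeR adjusted p = 0.0907) and -0.18 against the WT of the Q50 line (edgeR adjusted p = 0.748). The remaining riser stood at 71.2 ± 4.50 CPM (SD, n = 8) against 62.7 ± 5.23 CPM (SD, n = 24), a change of 0.18 with 8 of 8 Q140 libraries above the control mean. These calls were the least stable, lost in 22, 17 and 28 of the 32 fits that left out 1 library.

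The 2 stem-loops next in order of p did not pass. MI0000223, the second most abundant of all, averaged 138155 ± 8933 CPM (SD, n = 8) in Q140 against 120548 ± 13389 CPM (SD, n = 24) in controls. All 8 Q140 libraries lay above the control mean and 4 above every control (log2 fold change 0.19, SE 0.06, edgeR adjusted p = 0.0811). MI0018007 stood at 117 ± 9.93 CPM (SD, n = 8) and 96.8 ± 16.6 CPM (SD, n = 24), with 7 of 8 above the control mean (0.26, SE 0.08, edgeR adjusted p = 0.0811). The most abundant stem-loop, MI0000706, was at 146202 ± 10758 CPM (SD, n = 8) and 153394 ± 16725 CPM (SD, n = 24), a change of -0.04 (SE 0.06, edgeR adjusted p = 0.877). Of the 10 most abundant stem-loops 1 was called.

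Controls were also compared among themselves by the same test. These comparisons held 8 against 16 and 8 against 8 libraries, while Q140 against controls held 8 against 24. Their counts of calls are therefore no matched background, and Q140 against the WT of the Q50 line alone also gave 0. Q20 against WT gave 0 calls by edgeR (0%; 19 at an unadjusted p under 0.05) and the WT of the Q20 line against the WT of the Q50 line also 0 (0%; 40), with 0 by DESeq2 and limma in both. Q140 against controls at 6 months gave 10 calls (2.30%), none of them among the 10 of 10 months. With 2.30% called at each age, an overlap of 0 does not show that the ages differ. MI0000223, which missed the threshold at 10 months (0.19, edgeR adjusted p = 0.0811), was called at 6 months (0.16, edgeR adjusted p = 0.0372). Q50 and Q92 at 10 months gave 16 calls (3.69%) and 0 (0%; 47 at an unadjusted p under 0.05).

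No difference of the Q140 effect between the sexes passed the test. edgeR called 0 of 434 (0%; 9 at an unadjusted p under 0.05), as did DESeq2 and limma. The difference in log2 fold change between the sexes was 0.05 (SE 0.08) for MI0005495, 0.10 (SE 0.09) for MI0000547, -0.06 (SE 0.12) for MI0000696 and -0.76 (SE 2.96) for MI0025035, each with an edgeR adjusted p of 0.997. A p that misses the threshold does not show that the sexes responded alike.

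The difference of the Q140 effect between 10 and 6 months likewise gave 0 calls by edgeR (0%; 33 at an unadjusted p under 0.05). At 6 months the changes were -0.06 for MI0005495, 0.15 for MI0000547, -0.07 for MI0000696 and -3.93 for MI0025035. Their edgeR adjusted p at 6 months were 0.603, 0.0850, 0.530 and 0.178. Of the 10 called stem-loops 6 had the same sign at both ages. The share over all stem-loops tested was not counted, so 6 of 10 does not show agreement between the ages. The effect at 10 months minus that at 6 months was -0.11 (SE 0.06, edgeR adjusted p = 0.699) for MI0005495, 0.03 (SE 0.07, 0.910) for MI0000547, -0.14 (SE 0.08, 0.733) for MI0000696 and 8.87 (SE 2.46, 0.230) for MI0025035. For the 3 low-level fallers it ran from -2.37 to -1.71 with edgeR adjusted p from 0.323 to 0.607. The L tags of the 2 ages do not overlap, so age and tag cannot be told apart.

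**Figure D5:**
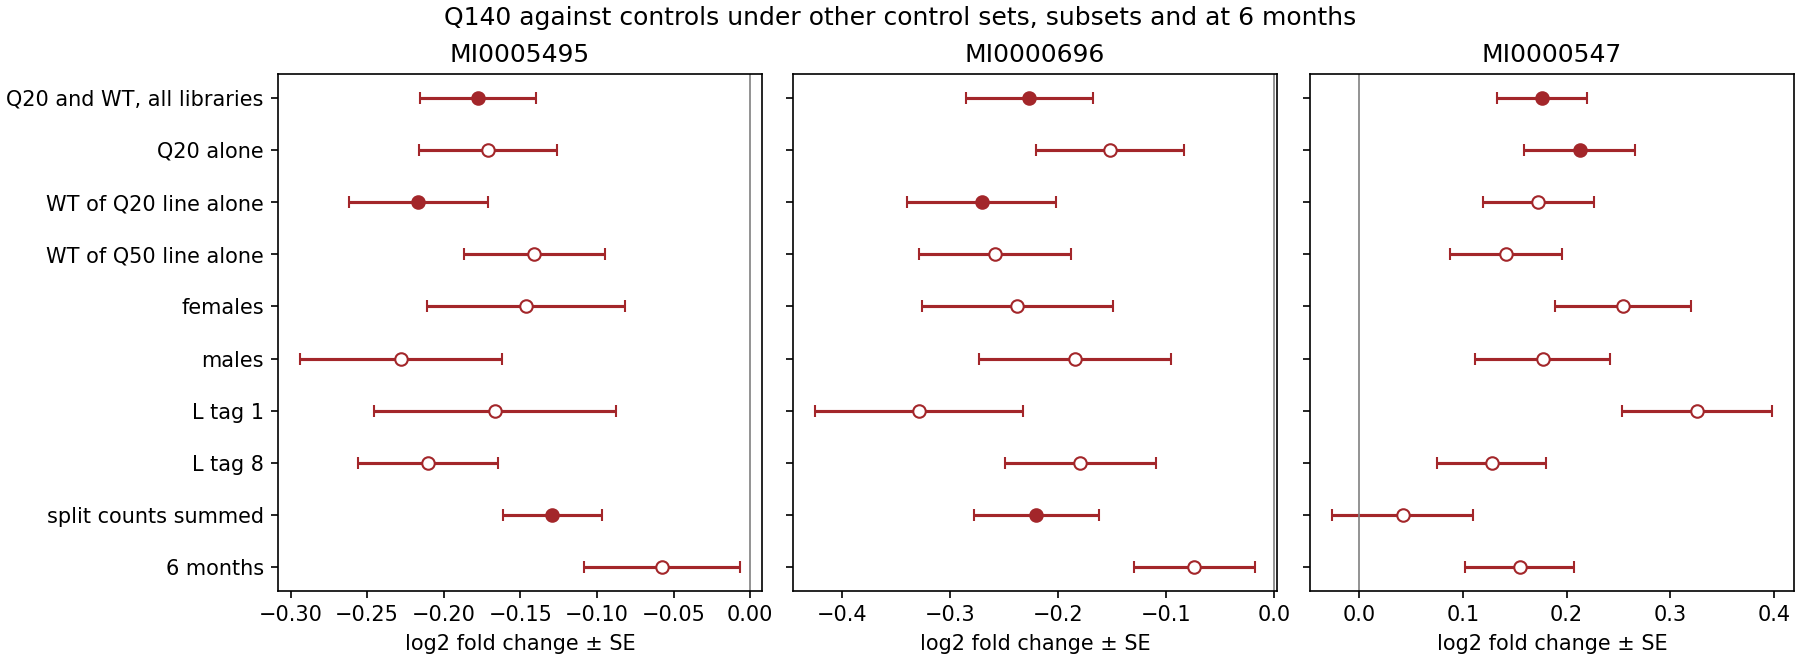
Log2 fold change of Q140 against controls with bars of 1 SE for 3 stem-loops against each control set, within sexes and L tags, with split groups summed, and at 6 months (filled points have an edgeR adjusted p under 0.05). MI0005495 and MI0000696 lie below 0 and MI0000547 above 0 in every row. In the row of summed groups the point for MI0000547 is that of its whole group, at 0.04, while MI0000547 alone is at 0.18. It holds a small part of the counts of that group.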

How the data were processed

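Small RNA was sequenced from the cerebellum. The submitters' processing notes list CASAVA 1.8.2. Per the methods of the study, reads were clipped, aligned with STAR to mm10 and counted with HTSeq. The deposited estimated counts (1187 stem-loops, 1033 with a count) were not normalized, and 268 stem-loops held a value further than 0.001 from a whole number. The deposited FPKM values, scaled by the authors to library total and stem-loop length, served 2 alternatives only. Which program split the reads is not stated in the sources used here.

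After rounding, the main test was edgeR's quasi-likelihood test (version 4.0.16, R 4.3.3, TMM normalization, Benjamini-Hochberg adjustment, threshold 0.05), fitted over all 10-month libraries with genotype group, sex and L tag as terms. Controls, covariates and the exclusion of libraries with Z.k under -5 followed the study. Stem-loops needed at least 10 counts in at least 8 libraries, which left 434 with at least 99.987% of the counts of each library. Interactions with sex or age were fitted as such. Levels are CPM of the TMM library size. Stem-loops were linked as split when their fractions, in at least 5 libraries, summed to whole numbers within 0.003 in 90% of libraries for pairs and 85% for groups of 3. Alternatives were DESeq2 1.42.0, limma 3.58.1 on log2(FPKM + 1) and log2(FPKM + 0.1), RLE factors, other filters, control sets and subsets, a replicate block, and each library left out in turn. Summing split groups, the connectivity on summed counts, and leaving out the named pairs of libraries were chosen after seeing the data.

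In counts simulated for this comparison on the 434 stem-loops, edgeR called 47.1% of log2 changes of size 0.25, 71.2% of those of 0.5 and 95.5% of those of 1, and 6 of 234 unchanged stem-loops. Changes of these sizes were set in 68, 66 and 66 stem-loops, far more than the 10 called in the data. So many changes make the adjusted threshold easier to pass. The simulated counts also held no sex, L tag or split-count effect. These shares therefore cannot be taken as the power of the comparison. The rule for names took every called stem-loop, but as the files do not pair accessions with names, only the 2 of lowest adjusted p per direction are printed, with their split partners, those of next lowest p and the most abundant. The named microRNA lists were not run. Comparison, lists and rules were chosen with earlier results of these data known. Per the methods of the study the libraries of a group came from different animals. The floor of 3 counts covers counting error only. SDs and SEs include the spread between animals.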

Additional observations from a re-analysis of the deposited data

Results flagged for a closer look

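The called stem-loops, their split groups and the sum of the 3 low-level fallers were tested for a library far from the rest, in 56 groups of 8 libraries in all. Of these 12 passed Dixon's 95% limit on the gap to the nearest library relative to the range of the group. Chance alone gives about 1 in 20 groups for normal values, but levels of a few CPM are skewed, and the tests overlap, so that rate is no measure of these 12. For MI0025035 the libraries were Q20 male 3 at 132 CPM (next highest 45.6), WT male 4 of the Q20 line at 30.1 CPM (next 13.1) and WT male 1 of the Q50 line at 228 CPM (next 75.3). For the summed MI0000145, MI0000547 and MI0000548 they were Q20 female 4 at 20931 CPM (next 15286) and WT female 3 of the Q20 line at 22363 CPM (next 15734). For the sum of the 3 low-level fallers they were Q20 female 2 at 58.7 CPM (next 23.3) and WT male 2 of the Q20 line at 39.7 CPM (next 18.8). Singly, the first of the 3 stood at 30.2 CPM in Q20 female 2 (next 9.56), 20.1 CPM in WT male 2 of the Q20 line (next 7.998) and 3.84 CPM in Q140 female 2 (next 1.71). The second stood at 16.8 CPM in Q20 female 2 (next 7.17), and the third at 10.9 CPM in WT male 2 of the Q20 line (next 4.50). The 2 high Q140 values of MI0025035 lie beside each other, so that neither stands alone by this measure.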

How the results depend on the processing

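The count of 10 calls for Q140 against controls stayed within 1.5 times under DESeq2 (10, or 12 with outlying values replaced), RLE factors (8), limma on either log2 FPKM scale (7 each), a mean count of at least 50 (7), no L tag term (9) and only the groups compared (9). It was 3 with Q20 alone as controls, 4 with both WT sets, 4 with the WT of the Q20 line alone and 0 with the WT of the Q50 line alone. It was 1 with no low count filter, 0 within L tag 1, L tag 8, females or males alone, and 1 without libraries of Z.k under -3. Of the alternatives chosen after seeing the data, it was 1 without Q140 female 4 and male 1, 3 without Q20 female 2 and WT male 2 of the Q20 line, and 4 with split groups summed. In 32 fits that each left out 1 library it ran from 1 to 11. The cause of these changes was not tested. The subsets held fewer libraries, and the single control sets held fewer controls in the comparison. Whether replicate numbers pair libraries was not tested. The mean r was 0.0715 over 120 same-numbered pairs (-0.644 to 0.534) and -0.0243 over 360 others, and a replicate block gave 6 calls. MI0025035 changed sign without libraries of Z.k under -3 (-2.49) and without Q140 female 4 and male 1 (-2.48). Summed with MI0000153, which holds most of the counts of both, the pair was at -0.040, a value of the pair and not of MI0025035. Over 22 settings, with the summed group standing for its stem-loop in 1, the call ended in 7 for MI0005495, 10 for MI0000696, 11 for MI0000547 and 13 for MI0025035, and the first 3 kept their sign in all 22. The difference between ages had 0 calls by edgeR, 1 by DESeq2, 2 by DESeq2 with outlying values replaced and 1 with no L tag term. The sex difference, Q20 against WT and the comparison of WT lines had 0 in every setting run. Summing stem-loops of identical mature sequence was planned and not run, since no table pairs accessions with sequences. Values near the floor of 3 counts limit MI0025035 and the 3 low-level fallers.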
